A study of Rattus norvegicus with 12 samples.

Results

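The BCL2 family decides whether the outer membrane of the mitochondrion stays closed or is opened during apoptosis, and 10 of its genes are described here in rat H9c2(2-1) cells deprived of glucose with or without empagliflozin. The members are the rows of the deposited expression table with the gene names Bcl2, Bcl2l1, Bcl2l2, Mcl1, Bax, Bak1, Bid, Bad, Bcl2l11 and Bbc3, which is 10 of 35966 rows; all 10 passed the filter on low values and were among the 12314 genes tested. RNA of 12 libraries was sequenced, 3 in each of 4 groups. GD cells had no glucose for 36 h, the 100 µM and 200 µM groups had empagliflozin at that concentration during a deprivation of the same length, and control cells were in high-glucose DMEM with 10% FBS. All groups are wild type and of the same line, H9c2(2-1), which was derived from embryonic rat heart, grows as myoblasts and is labelled as a myocardial cell. Empagliflozin blocks the sodium-glucose cotransporter of the kidney and is given to lower blood glucose. The labels give neither the serum of the deprived groups nor a solvent for the drug, so loss of glucose cannot be told apart from a change of serum, nor drug from solvent. They also do not say whether the 3 libraries of a group came from separate cultures, so the p-values may reflect technical spread only.

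Members of the family fall into 3 roles. The pro-survival proteins, here BCL2, BCL-XL (Bcl2l1), BCL-W (Bcl2l2) and MCL1, hold their relatives in check. The effectors BAX and BAK (Bak1) form pores in the outer mitochondrial membrane, which lets cytochrome c out and starts the caspase cascade. The BH3-only proteins, here BID, BAD, BIM (Bcl2l11) and PUMA (Bbc3), report stress and bind the other members to free or activate the effectors. In heart muscle the family is studied for the loss of cells under lack of oxygen or nutrients. Much of its control acts on the proteins, by phosphorylation, cleavage and degradation, which RNA levels do not show.

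The 12 libraries differed in composition in a way that touches each comparison with control. Values are TPM, a unit in which a gene's reads are set relative to its transcript length and to the total of its library. Ribosomal protein and ferritin genes held 37.6% to 41.5% of TPM in GD, 38.0% to 41.1% at 100 µM, 35.8% to 37.5% at 200 µM and 18.7% to 19.3% in control. Over all genes tested, the median log2 fold change in GD against control came to -0.65, that of 100 µM set against GD to 0.02 and that of 200 µM set against GD to 0.14. Member changes are given for TPM as deposited and, where it matters, after median-of-ratios scaling, which sets the typical gene to no change. Of the 12 libraries, replicate 3 of GD had the fewest genes at 1 TPM or more, 10551, where the others had 10875 to 12074. Depth is unknown, because TPM keep no record of read numbers. Of 8 cardiac muscle markers only Tnnt2 reached 1 TPM in 3 libraries, and Ryr2, the calcium release channel of heart muscle, was listed at 0 in all 12, so the cardiac label is not borne out by these markers. The summed level of these 8 markers was 21.5 to 26.7 TPM in GD, 17.9 to 30.6 at 100 µM, 29.7 to 64.3 at 200 µM and 131.9 to 154.7 in control. The 8 skeletal muscle and myoblast markers, 6 of which reached that level, summed to 28.2 to 31.8, 21.6 to 28.4, 30.9 to 39.8 and 263.4 to 269.1 TPM in the same order. The 4 smooth muscle markers, all above the level, summed to 266.8 to 281.6 TPM in GD, 436.0 to 501.2 at 100 µM, 1182.2 to 1492.4 at 200 µM and 8456.7 to 8857.0 in control. The 4 fibroblast markers, 2 of them above the level, summed to 510.9 to 883.1, 536.7 to 1003.9, 1444.6 to 1780.7 and 9304.9 to 10485.2 TPM in that order. None of 4 endothelial and 1 of 4 leukocyte markers reached it, and neither sum passed 2.0 TPM in any library. The muscle and fibroblast markers moved with the groups, and their part in the results below was not tested. In RNA of whole cultures, fewer cells that express a gene and less RNA of it per cell cannot be told apart.

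Bcl2l11, which encodes the BH3-only protein BIM, was low in GD and at 100 µM and near its control level at 200 µM. Bid was higher at 200 µM than in every other group. Bax, the most abundant member, was higher at either dose than in GD. Bcl2l1, the most abundant pro-survival gene, was higher in GD and at 100 µM than in control, and its call at 200 µM against control depended on scaling. Bcl2 itself was at or below 1.21 TPM in each deprived library.

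**Figure D1:**
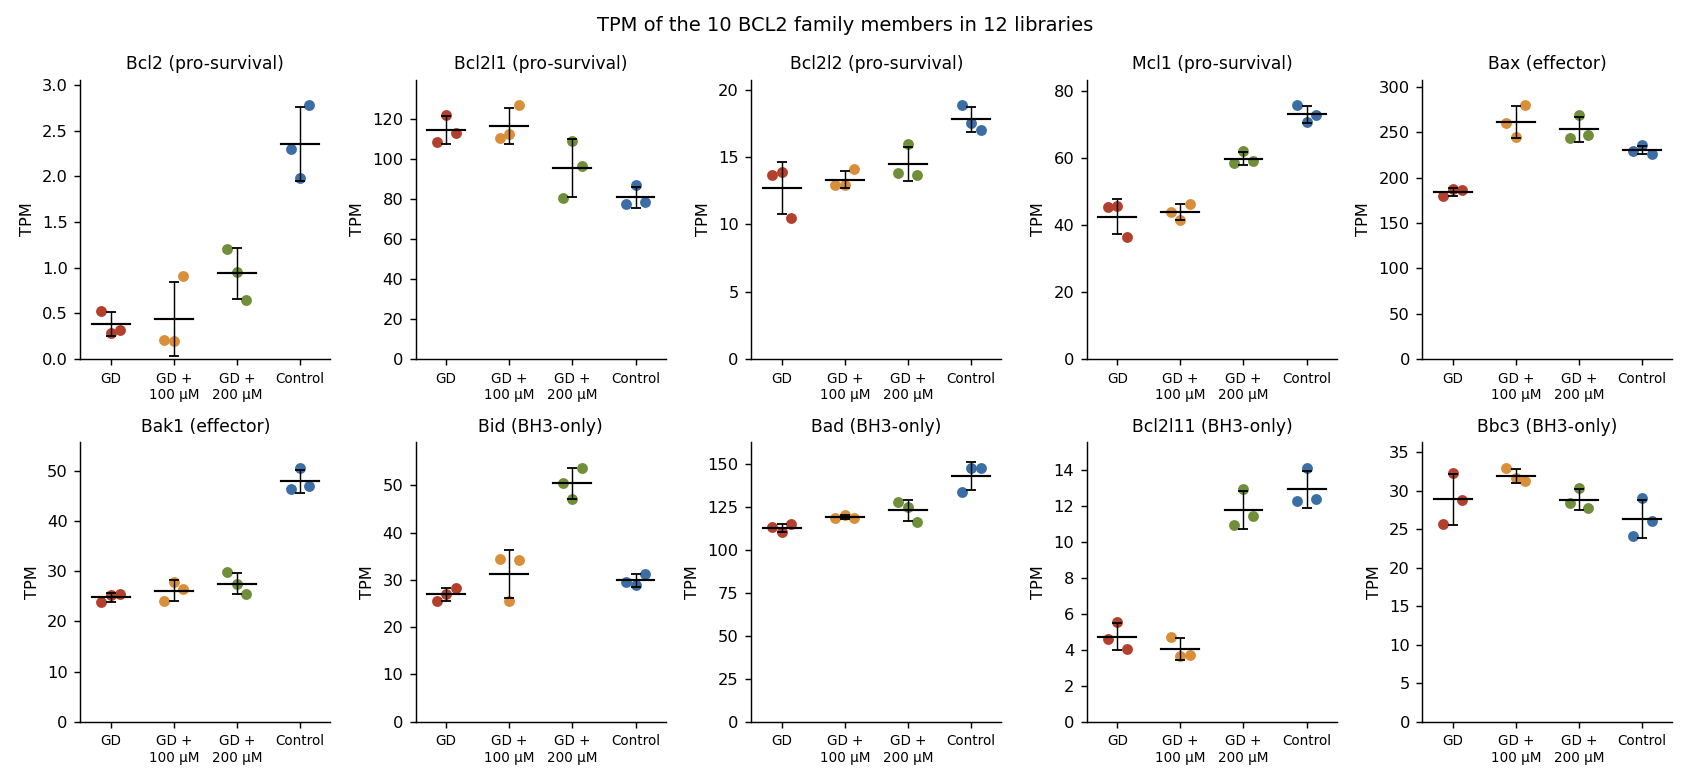
TPM (y axis, from 0, a scale of its own per panel) of each of the 10 members in the 12 libraries, by group on the x axis; points are libraries, bars the group mean and whiskers the SD of 3 libraries. The Bcl2l11 panel shows GD and 100 µM between 3.67 and 5.53 TPM, and 200 µM and control between 10.94 and 14.11 TPM.

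Among the pro-survival genes, Bcl2l1 was the most abundant in all 4 groups. It had 108.18, 121.93 and 112.93 TPM in the GD libraries, 110.47, 112.22 and 126.74 at 100 µM, 80.17, 108.91 and 96.57 at 200 µM and 77.26, 86.90 and 78.36 in control. GD and 100 µM lay above all control libraries, and the 200 µM libraries spread over both ranges. At 200 µM Bcl2l1 had a log2 fold change of 0.22 against control (SE 0.10, adjusted p = 0.0569 by limma) and was not called. It was called higher there by median-of-ratios (0.79), without ribosomal protein and ferritin genes (0.56) and by quantile normalization (0.67). Against control, Bcl2l1 rose in GD, with a log2 fold change of 0.50 (SE 0.10, adjusted p = 0.000468 by limma over all genes tested) and 1.25 after median-of-ratios scaling; it was also higher under the other scalings tried. The table gives Bcl2l1 per gene, so the long form, BCL-XL, and the short form that promotes death are not separated. In the rat assembly GRCr8 the gene overlaps Rps2-ps43, a pseudogene of the ribosomal protein gene Rps2. Rps2 itself averaged 7894.5 ± 576.5 TPM in GD, 8184.7 ± 337.1 at 100 µM, 7342.6 ± 65.3 at 200 µM and 6031.9 ± 98.6 in control (SD, n = 3 each), and whether its reads reached Bcl2l1 was not tested.

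Mcl1 encodes a pro-survival protein that is made and degraded fast. Its TPM were 45.56, 45.73 and 36.43 in GD, 43.85, 41.43 and 46.29 at 100 µM, 58.52, 62.13 and 59.05 at 200 µM and 75.85, 70.74 and 72.89 in control. As deposited, the groups formed 3 levels, with GD and 100 µM lowest, 200 µM between and control highest. At 200 µM against control Mcl1 had a log2 fold change of -0.28 (SE 0.09, adjusted p = 0.00834 by limma). After median-of-ratios scaling it was 0.28 (adjusted p = 0.00115), so the order of 200 µM and control depends on scaling. In GD against control Mcl1 was lower by a log2 fold change of -0.77 (SE 0.09, adjusted p = 1.8e-06), which is close to the median of all genes and was -0.02 after median-of-ratios scaling (adjusted p = 0.727).

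Bcl2, the founding member of the family, was its least abundant gene here. It had 0.53, 0.29 and 0.32 TPM in GD, 0.21, 0.20 and 0.91 at 100 µM, 1.21, 0.95 and 0.65 at 200 µM and 2.30, 1.98 and 2.78 in control. Every control library was above every deprived one, and the deprived groups overlapped except for 200 µM and GD. Bcl2 reached 1 TPM in 3 control libraries, 1 library at 200 µM and none of GD or 100 µM, so it passed the filter through the group where it is high and its call is not counted as support. The log2 fold change of GD against control was -1.28 (SE 0.18, adjusted p = 1.64e-05) on the log2(TPM + 1) scale, which understates changes at such levels, and -0.86 after median-of-ratios scaling.

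Bcl2l2 encodes BCL-W, a pro-survival protein close to BCL-XL. It averaged 12.7 ± 1.93 TPM in GD, 13.3 ± 0.655 at 100 µM, 14.5 ± 1.27 at 200 µM and 17.8 ± 0.945 in control (SD, n = 3 each). Its log2 fold change in GD against control was -0.47 (SE 0.11, adjusted p = 0.00139) as deposited but 0.25 (adjusted p = 0.0062) after median-of-ratios scaling and 0.31 after quantile normalization, so its direction depends on scaling.

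Of the effectors, Bax was the most abundant member in each group and stood above 95.1% or more of the genes tested in each. Its TPM were 179.38, 187.75 and 186.21 in GD, 260.31, 244.48 and 280.00 at 100 µM, 243.80, 269.00 and 247.23 at 200 µM and 229.17, 235.62 and 226.54 in control. GD was the lowest group, and both dose groups lay above all control libraries. In GD against control the log2 fold change was -0.32 (SE 0.06, adjusted p = 0.000232) as deposited and 0.44 (adjusted p = 0.000474) after median-of-ratios scaling, with 0.09 and 0.07 under the other scalings, neither of them called.

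Bak1 encodes the effector that sits in the outer membrane before any signal. It had 23.85, 25.21 and 25.57 TPM in GD, 24.01, 27.97 and 26.57 at 100 µM, 29.78, 27.48 and 25.44 at 200 µM and 46.35, 50.66 and 46.97 in control. The 3 deprived groups overlapped and all their libraries were below control. The log2 fold change of GD against control was -0.92 (SE 0.08, adjusted p = 2e-07), and -0.18 (adjusted p = 0.0872) after median-of-ratios scaling. The ratio of Bax to Bak1 TPM within a library, which dividing a library by a factor does not alter, was 7.42 ± 0.122 in GD, 10.0 ± 1.14 at 100 µM, 9.23 ± 0.905 at 200 µM and 4.81 ± 0.147 in control (SD, n = 3 each).

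Bcl2l11 encodes BIM, a BH3-only protein that binds all pro-survival members and can activate BAX and BAK directly. Its TPM were 4.57, 5.53 and 4.05 in GD, 4.72, 3.67 and 3.69 at 100 µM, 10.94, 12.93 and 11.41 at 200 µM and 12.27, 14.11 and 12.37 in control. GD and 100 µM overlapped at the low level, 200 µM and control overlapped at the high one, and no library lay between 5.53 and 10.94 TPM. Bcl2l11 fell in GD against control, with a log2 fold change of -1.29 (SE 0.13, adjusted p = 5.26e-07), and was lower under all 3 other scalings too (-0.61 by median-of-ratios, adjusted p = 0.000335). In GRCr8 it overlaps Acoxl, which did not exceed 0.16 TPM in any library. Of the other members, Bcl2 overlaps LOC120096229 and LOC134481474 there, and Bak1 overlaps LOC120098811. Whether reads of these genes reached Bcl2 or Bak1 was not tested.

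Bid encodes a BH3-only protein that caspase-8 cuts to link death receptors to the mitochondrion. It had 25.58, 27.02 and 28.36 TPM in GD, 34.33, 25.44 and 34.23 at 100 µM, 50.51, 47.20 and 53.72 at 200 µM and 29.46, 28.88 and 31.33 in control. Every library at 200 µM was above every other library, and 1 library at 100 µM lay below the other 2 of its group and below the GD range. GD and control did not overlap, yet their difference of -0.14 (SE 0.10) was not called (adjusted p = 0.221), and it was 0.59 and called higher after median-of-ratios scaling (adjusted p = 0.00178).

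Bad, whose product is kept inactive by phosphorylation through AKT, was the most abundant BH3-only gene. It averaged 112.8 ± 2.36 TPM in GD, 119.0 ± 1.06 at 100 µM, 122.9 ± 6.11 at 200 µM and 142.8 ± 7.92 in control (SD, n = 3 each), with a log2 fold change in GD against control of -0.34 (SE 0.06, adjusted p = 0.000114) as deposited and 0.42 after median-of-ratios scaling. Bbc3 encodes PUMA, which binds the pro-survival members. It had 25.61, 32.23 and 28.82 TPM in GD, 32.95, 31.57 and 31.21 at 100 µM, 28.45, 30.32 and 27.73 at 200 µM and 24.05, 28.97 and 26.07 in control. The GD and control libraries of Bbc3 overlapped, and the log2 fold change of 0.13 (SE 0.09) was not called as deposited (adjusted p = 0.22), while it was 0.86 and called higher after median-of-ratios scaling (adjusted p = 7.95e-06).

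The promoters of the 3 members with the widest range of group means of log2(TPM + 1) as deposited, Bcl2l11, Bcl2 and Bak1, are shown so that their letters can be set beside these levels; after median-of-ratios scaling Bid, Bcl2l1 and Bcl2l11 had wider ranges than Bcl2 and Bak1. Each is the stretch of 250 bases before the annotated start of the gene in RefSeq's GRCr8 assembly, 5′ to 3′ on the strand of the gene, and entries matched 8 of the 10 members, all but Bax and Bbc3. Capitals mark matches, on either strand, to TTGCATC or TTACATC (ATF4 type), TGACGT (CRE type), GTAAACA (FOXO type), CACGTG (E-box) and GGGCGG (GC box). The windows are chr3:135819792-135820041 on the plus strand for Bcl2l11, chr13:23366901-23367150 on the minus strand for Bcl2 and chr20:5110975-5111224 on the minus strand for Bak1.
Bcl2l11: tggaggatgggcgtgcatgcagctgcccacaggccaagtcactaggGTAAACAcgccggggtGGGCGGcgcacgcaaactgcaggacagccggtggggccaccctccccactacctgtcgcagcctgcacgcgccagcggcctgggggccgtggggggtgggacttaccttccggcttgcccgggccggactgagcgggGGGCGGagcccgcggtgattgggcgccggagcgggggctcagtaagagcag
Bcl2: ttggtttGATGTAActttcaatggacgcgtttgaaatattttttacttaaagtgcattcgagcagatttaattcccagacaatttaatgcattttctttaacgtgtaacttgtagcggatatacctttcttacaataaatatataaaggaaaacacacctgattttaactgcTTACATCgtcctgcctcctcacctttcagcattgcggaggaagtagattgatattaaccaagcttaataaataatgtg
Bak1: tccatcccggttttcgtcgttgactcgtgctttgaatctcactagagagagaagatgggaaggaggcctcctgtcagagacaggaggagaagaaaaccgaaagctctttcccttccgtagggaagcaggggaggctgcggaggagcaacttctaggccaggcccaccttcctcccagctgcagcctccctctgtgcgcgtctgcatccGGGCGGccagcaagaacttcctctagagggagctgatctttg
Bcl2l11 held 1 FOXO-type match, which begins 204 bases before the start, and 2 GC boxes, at 188 and 51 bases. Bcl2 held 2 TTACATC matches, at 243 and 78 bases, and Bak1 held 1 GC box at 42 bases. None of these matches overlapped another. Of 33469 such windows of rat genes, 3.21% held GTAAACA, 2.15% TTACATC and 30.5% GGGCGG. The window of Bcl2l11 was 72% G or C with 22 CG pairs, that of Bcl2 33.6% with 7 and that of Bak1 57.6% with 11, against a median of 51.2% and 5 over all windows. A match is a string of letters and was not tested as a binding site.

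The first comparison sets GD against control, in which loss of glucose and a change of serum cannot be told apart. Bcl2l1 rose and Bcl2l11 fell under each scaling tried. As deposited, 1 member was called higher and 7 lower, where 14% of all genes tested were called higher and 67.6% lower. Without Bcl2 the counts were 1 and 6 of 9. By median-of-ratios, 6 members and 38% of all genes were called higher, and 2 members and 38.7% of all genes lower. The median log2 fold change of the members was -0.40, against -0.65 for all genes tested. Bcl2l2, Bax, Bad and Bid changed direction between these scalings. By median-of-ratios Bid and Bbc3 gained calls as higher, and Mcl1 and Bak1 lost their calls. As deposited, the members' counts were near the background in both directions.

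**Figure D2:**
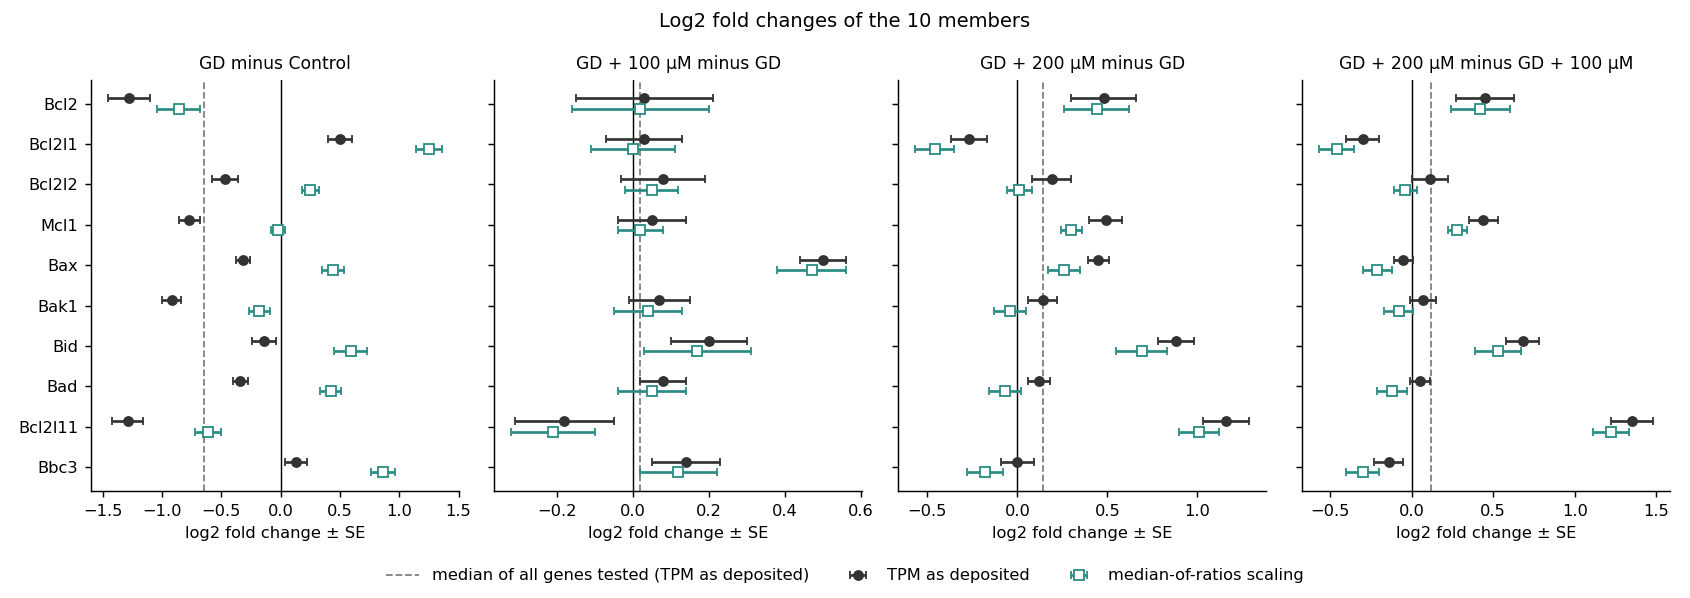
Log2 fold changes (x axis, a range of its own per panel) of the 10 members (y axis) in 4 comparisons, with SE from limma; filled circles are TPM as deposited, open squares TPM after median-of-ratios scaling, and the dashed line is the median of all genes tested. In GD minus control the squares lie to the right of the circles for every member, and Bcl2l1 is positive while Bcl2 and Bcl2l11 are negative under both.

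The second comparison sets 100 µM empagliflozin against deprivation alone. Bax was the only member called, with a log2 fold change of 0.50 (SE 0.06, adjusted p = 0.000361) and group means of 261.6 ± 17.8 TPM at 100 µM and 184.4 ± 4.45 TPM in GD (SD, n = 3 each). It was higher in 3 of 3 libraries at 100 µM than in any GD library, and its call held under each alternative tried. With 1 member higher and 0 lower, the background was 7.51% of all genes called higher and 5.46% lower, or 8.1% and 10.4% by median-of-ratios. At an unadjusted p under 0.05 in limma, 0 members were lower too. Bid was at 0.20 (SE 0.10, adjusted p = 0.252), and without replicate 2 of 100 µM, whose value is below those of GD, it was at 0.34 and called (adjusted p = 0.0235). Bcl2l11 was at -0.18 (SE 0.13, adjusted p = 0.381), and the 7 other members lay between 0.03 and 0.14 with adjusted p from 0.345 to 0.941.

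The third comparison sets 200 µM empagliflozin against deprivation alone. Bcl2l11, Bid, Mcl1 and Bax rose, where 32% of all genes were called higher, and these calls held under each alternative tried, scalings included. Bcl2l11 had the largest change, 1.16 (SE 0.13, adjusted p = 1.16e-05), with 11.8 ± 1.04 TPM at 200 µM and 4.72 ± 0.751 TPM in GD, or 2.49 times as much. Bid changed by 0.88 (SE 0.10, adjusted p = 2.68e-05), with 50.5 ± 3.26 TPM at 200 µM and 27.0 ± 1.39 TPM in GD. Mcl1 was at 0.49 (SE 0.09, adjusted p = 0.000495) and Bax at 0.45 (SE 0.06, adjusted p = 5.51e-05).

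Bcl2 and Bcl2l1 were called too, in opposite directions, but both calls were near the threshold. Bcl2 was higher by 0.48 (SE 0.18, adjusted p = 0.042) and lost its call after median-of-ratios scaling (adjusted p = 0.069) and when any 1 of 4 libraries was left out, replicates 1 and 2 of 200 µM and replicates 2 and 3 of GD. Bcl2l1 was lower by -0.27 (SE 0.10, adjusted p = 0.0437), with adjusted p = 0.00428 after median-of-ratios scaling, and lost its call when any 1 of 5 of the 6 libraries was left out, all but replicate 2 of 200 µM. Of the 10 members 5 were called higher and 1 lower, or 4 and 1 of 9 without Bcl2, where 11.4% of all genes were called lower. By median-of-ratios the members' counts were 4 and 1, and 22.7% and 24% of all genes were called in these directions. Bak1 (0.14, adjusted p = 0.18), Bcl2l2 (0.19, adjusted p = 0.185), Bad (0.12, adjusted p = 0.107) and Bbc3 (0.00, adjusted p = 0.985) were not called.

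The direct test between doses shows which of these changes differed between 200 µM and 100 µM. Bcl2l11 was higher at 200 µM by 1.35 (SE 0.13, adjusted p = 7.06e-06), Bid by 0.68 (SE 0.10, adjusted p = 0.000326) and Mcl1 by 0.44 (SE 0.09, adjusted p = 0.00157), and all 3 calls held under each alternative tried. Bcl2l1 was lower by -0.30 (SE 0.10, adjusted p = 0.0366), a call lost when any 1 of 5 of the 6 libraries was left out, all but replicate 2 of 200 µM. For Bax the difference was -0.05 (SE 0.06, adjusted p = 0.595), the dose groups overlapped, and the data show no dose difference larger than the spread between libraries. Over all genes tested 25.7% were called higher and 8.06% lower between the doses; among the members these were 3 and 1. By median-of-ratios 3 and 2 members were called, Bbc3 being the second lower one, with 18.6% and 18.5% of all genes. Both comparisons of a dose with GD use the same 3 GD libraries, so their values are not independent of each other.

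Against control, cells at 100 µM had less Bcl2l11 and more Bcl2l1, under each scaling tried. Bcl2l11 was at -1.47 (SE 0.13, adjusted p = 1.52e-07) and Bcl2l1 at 0.52 (SE 0.10, adjusted p = 0.000319). In all, 3 members were called higher, Bcl2l1, Bax and Bbc3, and 6 lower, where 14.1% and 66.6% of all genes were; without Bcl2 the counts were 3 and 5 of 9. Bax lost its call without replicate 3 of 100 µM (adjusted p = 0.069), and Bbc3 without replicate 1 of 100 µM (0.0501) or replicate 1 of control (0.0736). Median-of-ratios gave 6 and 2 members, with 38.3% of all genes in each direction. In cells at 200 µM Bid was the only member called higher (0.74, SE 0.10, adjusted p = 2.91e-05), and 5 were lower, where 13.4% and 62.8% of all genes were; without Bcl2 the counts were 1 and 4 of 9. Bcl2l2, at -0.28 (adjusted p = 0.032), lost its call without replicate 1 or 3 of 200 µM or replicate 1 or 2 of control (0.0604 to 0.105). Here median-of-ratios gave 8 and 1 members, with 35.1% and 35.8% of all genes. Bcl2l11 was at -0.13 there (SE 0.13, adjusted p = 0.372) and at 0.40 after median-of-ratios scaling (adjusted p = 0.0075), so whether it was called above control depends on scaling. Bid was higher at 200 µM than in control under each scaling tried, at 1.29 after median-of-ratios scaling. These comparisons share the 3 control libraries with that of GD and control.

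Shares within the family do not change when a library is divided by a factor, though quantile normalization can change them, and they are given as a description. The 10 members summed to 552.7 ± 15.4 TPM in GD, 648.1 ± 31.4 at 100 µM, 665.4 ± 29.7 at 200 µM and 664.6 ± 17.0 in control (SD, n = 3 each). Effectors held 37.9% ± 0.669 of that sum in GD, 44.4% ± 0.516 at 100 µM, 42.2% ± 0.316 at 200 µM and 41.9% ± 0.547 in control, with GD libraries lowest and 100 µM libraries highest. Pro-survival genes held 30.7% ± 1.38 in GD, 26.8% ± 0.745 at 100 µM, 25.6% ± 1.58 at 200 µM and 26.2% ± 0.547 in control, so the GD libraries were above all others in share. Their summed TPM overlapped between groups, with 170.0 ± 11.0 in GD, 174.1 ± 12.1 at 100 µM, 170.6 ± 17.1 at 200 µM and 174.2 ± 3.03 in control. BH3-only genes held 31.4% ± 0.72, 28.8% ± 1.14, 32.2% ± 1.52 and 31.9% ± 1.06 in the same order, and the 100 µM libraries were lowest in share. The summed TPM of BH3-only genes was lowest in GD, at 173.4 ± 3.95, with 186.2 ± 4.87 at 100 µM.

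**Figure D3:**
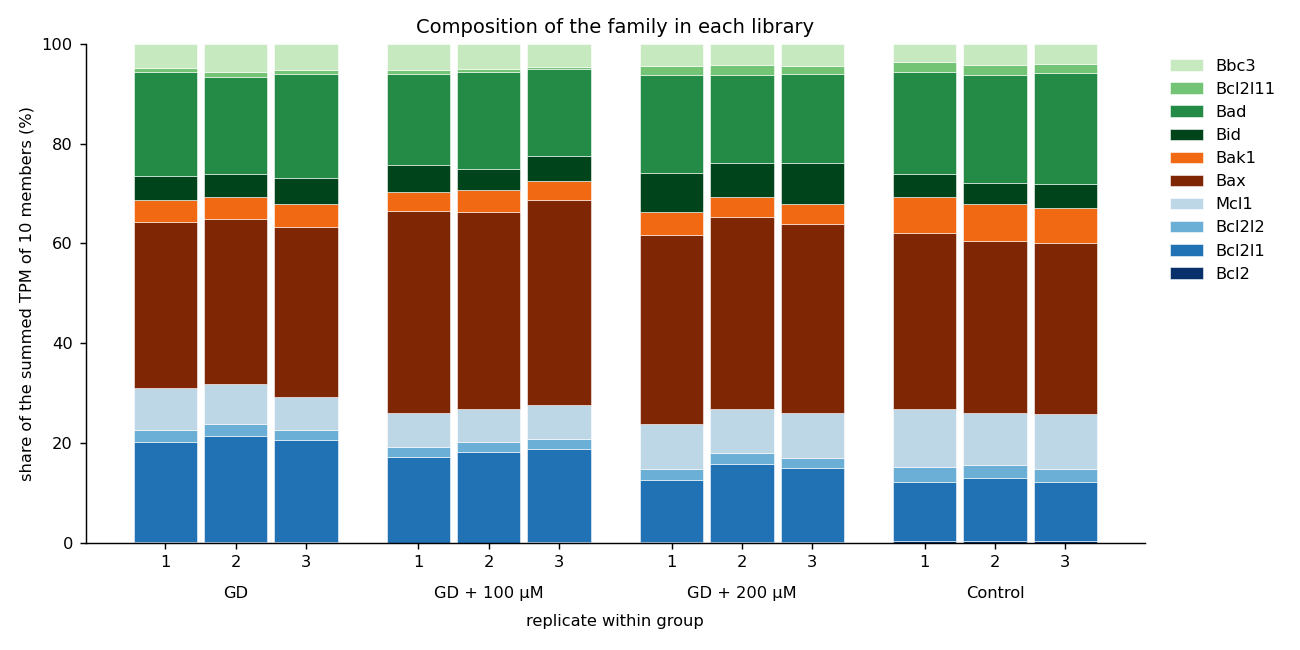
Share in percent (y axis) of each member in the summed TPM of the 10 members, 1 stacked bar per library, grouped by condition on the x axis; blues are pro-survival genes, browns and oranges effectors, greens BH3-only genes. Bcl2l1 holds 20.0% to 21.4% in GD and 11.8% to 12.7% in control, and Bid is widest at 200 µM with 6.75% to 8.24%.

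Within the pro-survival genes, Bcl2l1 outweighed Mcl1 in every library, by least in control. Bcl2l1 held 20.7% ± 0.685 of the family in GD, 18.0% ± 0.701 at 100 µM, 14.3% ± 1.64 at 200 µM and 12.2% ± 0.493 in control, while Mcl1 held 7.7% ± 0.938, 6.77% ± 0.0758, 9.01% ± 0.106 and 11.0% ± 0.662. The ratio of Bcl2l1 to Mcl1 TPM was 2.37 to 3.10 in GD, 2.52 to 2.74 at 100 µM, 1.37 to 1.75 at 200 µM and 1.02 to 1.23 in control. GD and 100 µM overlapped in this ratio, and both lay above the other groups. Bax per Bcl2l1 was 1.62 ± 0.0658 in GD, 2.25 ± 0.095 at 100 µM, 2.69 ± 0.307 at 200 µM and 2.86 ± 0.131 in control, so that each GD library had less Bax for its Bcl2l1 than any other library. Bax per Mcl1 had another order, with 4.38 ± 0.635 in GD, 5.96 ± 0.0772 at 100 µM, 4.23 ± 0.089 at 200 µM and 3.15 ± 0.16 in control.

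**Figure D4:**
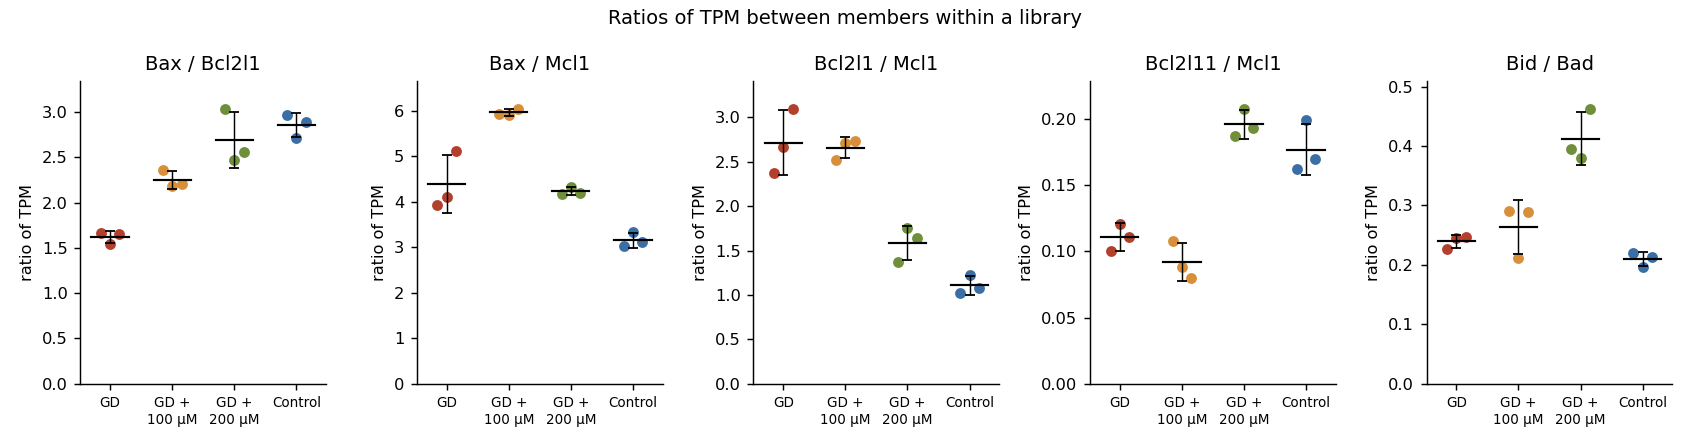
Ratios of TPM between members within each library (y axis, from 0, a scale of its own per panel) by group on the x axis; points are libraries, bars the group mean and whiskers the SD of 3 libraries. Bcl2l11 per Mcl1 lies between 0.0797 and 0.121 in GD and at 100 µM and between 0.162 and 0.208 at 200 µM and in control.

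Among BH3-only genes the balance moved between Bbc3, Bcl2l11 and Bid. Bbc3 exceeded Bcl2l11 by a ratio of 6.18 ± 0.816 in GD, 8.01 ± 0.897 at 100 µM, 2.46 ± 0.13 at 200 µM and 2.04 ± 0.0746 in control. Bid per Bad was 0.239 ± 0.0114 in GD, 0.264 ± 0.045 at 100 µM, 0.412 ± 0.0445 at 200 µM and 0.21 ± 0.0126 in control, with the 200 µM libraries above all others. Ordered by TPM, Bax came first and Bcl2l2, Bcl2l11 and Bcl2 last in each group. Bad came next, followed by Bcl2l1, at 100 µM, at 200 µM and in control. In GD the order of this pair was the other way round, and their libraries overlapped in GD and at 100 µM. Mcl1 followed this pair in each group. The fifth place was Bbc3 in GD and at 100 µM, Bid at 200 µM and Bak1 in control, where Bbc3 and Bid did not differ beyond their spread in GD, at 100 µM or in control.

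By the naming rule, the genes most like Bcl2l11 over the 12 libraries were Jam3 (Pearson r = 0.980 of log2 values), Hpse2 (0.977) and Slc39a6 (0.976), a junction protein, an inactive heparanase and a zinc transporter. Hpse2 averaged 1.54 TPM in GD, 1.43 at 100 µM, 4.52 at 200 µM and 4.68 in control. Of the genes tested that have an established symbol, 431 had a correlation over 0.9 with Bcl2l11, 1853 with Bcl2 and 4078 with Bak1. The pattern of Bak1 is thus a common one. Those most like Bcl2 were Cyb5d2 (0.981), Hmgn5b (0.978) and Ccm2l (0.973), and those most like Bak1 were Cmtm7 (0.995), Pdlim2 (0.995) and Uqcrc1 (0.994). The 12 libraries share 4 group means, which drive such values, and no p is given.

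Other genes of the BCL2 type were called in GD against control about as often as all genes, of which 14% were called higher and 67.6% lower (38% and 38.7% by median-of-ratios). Of 16 listed, 10 were tested; 7 fell and 1 rose in GD against control (5 and 3 by median-of-ratios), with a median of -1.0 against -0.65 for all genes. Bmf, a BH3-only gene tied to the cytoskeleton, averaged 0.793 ± 0.468 TPM in GD and 16.3 ± 0.224 TPM in control (log2 fold change -3.30, SE 0.22, adjusted p = 1.4e-08). Bnip3, whose product marks mitochondria for removal, was the gene that rose, with 234.5 ± 27.3 TPM in GD and 91.8 ± 7.73 TPM in control (1.34, SE 0.11, adjusted p = 7.51e-08). It was lower than GD at 100 µM (182.2 ± 16.7 TPM; -0.36, adjusted p = 0.0429, and 0.0849 to 0.158 without replicate 1 or 3 of 100 µM or replicate 1 or 2 of GD) and at 200 µM (142.4 ± 17.1 TPM; -0.72, adjusted p = 0.000154). In cells at 200 µM 3 of the list rose and 1 fell against GD (1 and 1 by median-of-ratios). Among all genes 32% rose and 11.4% fell there (22.7% and 24% by median-of-ratios). Bcl2l12 was 1 of those that rose, by 0.55 (adjusted p = 0.000994 by limma). Bcl2l12 and Bcl2l13 had fallen in GD by -1.41 and -1.30.

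Downstream of the mitochondrion, most caspase and apoptosome genes were called lower in GD as deposited, as were 67.6% of all genes. Of 14 listed, 13 were tested, and 12 fell and 0 rose in GD against control (4 and 4 by median-of-ratios, and 0 higher at an unadjusted p under 0.05 in limma), with a median of -0.64 that is close to that of all genes. Among all genes 14% rose there as deposited, and by median-of-ratios 38% rose and 38.7% fell. Apaf1, the scaffold of the apoptosome, averaged 0.967 ± 0.383 TPM in GD and 7.63 ± 0.821 TPM in control (-2.15, SE 0.14, adjusted p = 1.21e-08; -1.59 after that scaling). The initiator Casp9 was at 6.7 ± 0.229 TPM in GD and 14.8 ± 0.964 TPM in control, and Dffa, which restrains the nuclease of apoptosis, fell by -1.07. In the 200 µM cells 3 rose and 0 fell against GD, where 32% and 11.4% of all genes did. By median-of-ratios 2 rose and 4 fell, with 22.7% and 24% of all genes. As deposited, at an unadjusted p under 0.05 in limma, 6 were higher and 0 lower. The executioner gene Casp6 rose, with 6.88 ± 1.58 TPM at 200 µM and 3.51 ± 0.563 TPM in GD (0.79, adjusted p = 0.000608 by limma). It stayed called by median-of-ratios.

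Inhibitors of apoptosis proteins, which bind caspases or their regulators, moved both ways. Of 7 listed, 6 were tested, and 2 rose and 4 fell in GD against control (2 and 3 by median-of-ratios). Among all genes 14% rose and 67.6% fell there (38% and 38.7% by median-of-ratios). Birc3 averaged 14.2 ± 0.819 TPM in GD and 1.52 ± 0.0651 TPM in control (2.59, SE 0.15, adjusted p = 3.55e-09) and was 14.8 ± 3.78 TPM at 100 µM and 17.8 ± 2.52 TPM at 200 µM. Birc2 rose by 0.31 (adjusted p = 0.0111, and 0.0553 without replicate 1 of GD). Birc5, which is also a gene of cell division, was at 0.813 ± 0.429 TPM in GD and 23.6 ± 1.74 TPM in control, and Birc6 fell by -1.88. With 200 µM, Xiap rose against GD (0.47, adjusted p = 0.032; 0.0594 after that scaling) and Birc2 fell (-0.27, adjusted p = 0.0441). The call of Xiap was lost without replicate 3 of GD or any 1 of the 200 µM libraries (adjusted p of 0.0519 to 0.0956), and that of Birc2 without replicate 1 or 2 of GD or 2 or 3 of 200 µM (0.106 to 0.162).

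Genes of the death receptor arm, which reaches the family through BID, fell in 7 of 9 tested cases of 12 listed and rose in 1 in GD against control (3 and 3 by median-of-ratios), where 67.6% and 14% of all genes did. By median-of-ratios 38.7% of all genes fell and 38% rose there. The gene that rose was the receptor gene Fas, named after its values were seen, with 30.3 ± 1.55 TPM in GD and 17.5 ± 1.03 TPM in control (0.76, SE 0.12, adjusted p = 4.01e-05). The adaptor genes Tradd (-0.99) and Fadd (-1.79) and the receptor gene Tnfrsf1a (-1.40) fell. Set against GD, 200 µM cells had more Tradd (0.55, adjusted p = 8.08e-06) and Tnfrsf1a (0.47, adjusted p = 0.00161). The list had 2 genes that fell there, where 11.4% of all genes did. Among them was Ripk3, a kinase of necroptosis, with 23.4 ± 3.84 TPM at 200 µM and 37.9 ± 1.96 TPM in GD (-0.69, adjusted p = 0.000865 by limma). Casp8, which cuts BID and was also named after its values were seen, was the other gene that fell, at 1.94 ± 0.0709 TPM at 200 µM and 2.64 ± 0.361 TPM in GD (-0.30, adjusted p = 0.0479). Its call was lost without replicate 1 or 2 of GD or any 1 of the 200 µM libraries (adjusted p of 0.0815 to 0.141).

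Genes that act upstream of the members moved both ways. Of 18 listed, 16 were tested, and 5 rose and 10 fell in GD against control (7 and 7 by median-of-ratios). Among all genes 14% rose and 67.6% fell there (38% and 38.7% by median-of-ratios). Ddit3, which encodes CHOP, a factor known to induce Bcl2l11 in other settings, was at 1269.9 ± 131.1 TPM in GD, 1197.3 ± 91.1 at 100 µM, 552.8 ± 99.9 at 200 µM and 61.9 ± 0.415 in control (SD, n = 3 each). Its level was highest in the 2 groups in which Bcl2l11 was lowest. Whether Ddit3 acts on Bcl2l11 in these cells was not tested. At 200 µM against GD Ddit3 fell by -1.21 (SE 0.11, adjusted p = 2.88e-06 by limma). Trib3, a target of CHOP, had the same order of groups, with 317.8 ± 29.2, 291.2 ± 26.3, 214.3 ± 43.0 and 60.5 ± 8.4 TPM, and Atf3 likewise, with 62.5 ± 2.2, 34.3 ± 0.934, 19.1 ± 2.61 and 3.97 ± 0.28 TPM. Atf4 was at 814.4 ± 33.4 TPM in GD, 743.5 ± 25.3 at 100 µM, 896.0 ± 69.5 at 200 µM and 368.4 ± 1.34 in control.

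Foxo3 encodes a factor that can activate Bcl2l11 when AKT is low, a link that was not tested here. It averaged 4.49 ± 0.905 TPM in GD, 4.52 ± 0.555 at 100 µM, 6.46 ± 0.466 at 200 µM and 14.9 ± 0.684 in control, and rose at 200 µM against GD (0.45, SE 0.13, adjusted p = 0.012) and against 100 µM (0.44, adjusted p = 0.0186). The call against 100 µM was lost without replicate 1 of 100 µM or replicate 1 or 2 of 200 µM (adjusted p of 0.0574 to 0.0804). Akt1 fell in GD against control, with 124.7 ± 4.65 TPM in GD and 300.3 ± 17.6 TPM in control (-1.26, SE 0.06, adjusted p = 9.27e-10), and was at 132.6 ± 5.37 TPM at 200 µM. Against GD, 3 genes of this list of upstream genes rose and 4 fell at 200 µM (2 and 7 by median-of-ratios). Among all genes 32% rose and 11.4% fell there (22.7% and 24% by median-of-ratios).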

How the data were processed

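RNA of 12 libraries of the rat line H9c2(2-1), 3 in each of 4 groups, was sequenced from total RNA with Illumina protocols, per the labels' protocols. The authors deposited 1 column of TPM per library for 35966 gene rows; HISAT2 and StringTie were used, per the submitters' processing notes. Not given in the sources used here: versions, build, annotation, strand. The unit was read from the values, whose columns sum to 946400.5 to 981389.8. Where a symbol has several rows, that with the plain identifier was used.

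A gene was tested if 3 or more libraries reached 1 TPM (12314 genes). The limma-trend test (limma 3.58.1, R 4.3.3) was run on log2(TPM + 1), with all libraries in 1 model and a mean per group; p-values are two-sided, were adjusted for all genes of a comparison by Benjamini-Hochberg and were called under 0.05. The procedure was tested on simulated data in which few genes changed and composition did not shift. That test cannot speak to the choice of scaling. Deposited TPM were divided by size factors from 12018 genes for median-of-ratios scaling. Summed shares and ratios carry no test. Genes that overlap members were looked up after the overlaps were seen.

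The members, gene lists, markers and tests were chosen with earlier results of these data known. Named genes are all members, of each list the 3 with the smallest p in GD against control and the 2 in 200 µM against GD, Ddit3, Atf4, Trib3 and Foxo3, and the 3 genes most correlated with each of the 3 members of widest range; a few of these genes are left unreported here. The lists cover other BCL2-type genes, caspases and apoptosome, inhibitors of apoptosis, the death receptor arm, outer membrane partners, upstream regulators and MCL1 turnover. Alternatives were other scalings, pseudocounts, filters and thresholds, limma without the trend, the compared groups alone, a replicate term and leaving out each library.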

Additional observations from a re-analysis of the deposited data

How the results depend on the processing

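Scaling moved most counts of comparisons with control. Shares of all genes called are given above for TPM as deposited and for median-of-ratios scaling only. The other counts here show dependence on the setting and are not read as a result about the family. Members called higher and lower in GD against control numbered 6 and 2 after median-of-ratios scaling, 3 and 4 without ribosomal protein and ferritin genes and 5 and 4 after quantile normalization. For 100 µM against control median-of-ratios scaling gave 6 and 2, 5 higher came without those genes, 6 after quantile normalization and 1 at an adjusted p under 0.01. For 200 µM against control the counts were 8 and 1 by median-of-ratios and by quantile normalization, 4 and 2 without those genes, and 2 higher with the compared groups alone or with the replicate block. Between the doses 2 were lower by median-of-ratios or quantile normalization. The lower call of Bcl2l1 was lost, leaving 0, with no filter, without the trend, with the compared groups alone and at an adjusted p under 0.01, at 200 µM both against GD and against 100 µM. Leaving out 1 library gave 0 to 1 lower in these 2 comparisons, 1 to 2 higher for 100 µM against GD, 2 to 4 higher for 100 µM against control, and 1 to 3 higher and 4 to 5 lower for 200 µM against control.

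Directions turned as follows, in log2 fold change by median-of-ratios, without ribosomal protein and ferritin genes, and by quantile normalization. In GD against control Bax was at 0.44, 0.09 and 0.07, Bad at 0.42, 0.07 and 0.14, Bid at 0.59, 0.26 and 0.53, and Bcl2l2 at 0.25 and 0.31 by the first and last. At 100 µM against control Bad was at 0.47, 0.14 and 0.22, and Bcl2l2 at 0.30 and 0.37. At 200 µM against control Bad was at 0.35, 0.12 and 0.20, Mcl1 at 0.28, 0.05 and 0.17, Bcl2l2 at 0.26, 0.04 and 0.31, and Bcl2l11 at 0.40 and 0.49 by the first and last. All these values lie above those of TPM as deposited, and which scaling is nearer the truth was not tested. Of 60 values, 32 kept direction and call under all alternatives, and 49 under all alternatives other than scaling. In both counts, sign changes of values called in neither setting, 27 in all, are not counted as turns.

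The replicate block changed 1 member call, Bcl2l1 at 200 µM against control (adjusted p = 0.0259); only 3 of 18 same-numbered pairs correlated above 0.1, and 8 of 12 libraries were closest to their own number. Depth is unknown, so counting error, largest for Bcl2, could not be given.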

Other observations

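Genes whose products act beside the family on the outer membrane moved unevenly. Of 11 tested, 2 rose and 5 fell in GD against control (8 and 2 by median-of-ratios). Among all genes 14% rose and 67.6% fell there (38% and 38.7% by median-of-ratios). The hexokinase genes, whose products dock on the membrane, fell: Hk1 was at 16.4 ± 2.22 TPM in GD and 72.5 ± 0.726 TPM in control (log2 fold change -2.08, SE 0.09, adjusted p = 4.09e-10 by limma), and Hk2 fell by -1.46. Hk1 was higher at 200 µM (32.3 ± 1.47 TPM) than in GD (0.94, SE 0.09, adjusted p = 6.41e-06) and than at 100 µM (0.66, adjusted p = 0.000184), and held these calls by median-of-ratios. The channel gene Vdac1 averaged 74.1 ± 4.17 TPM in GD and 128.7 ± 2.98 TPM in control, and was lower than in GD at 100 µM (-0.33, adjusted p = 0.00581) and at 200 µM (-0.20, adjusted p = 0.0247, and 0.0666 to 0.0907 without replicate 1 or 2 of GD or 1 or 3 of 200 µM). The import receptor gene Tomm22 was higher at 200 µM than in GD by 0.31 (adjusted p = 0.000365), or 0.12 and not called by median-of-ratios. In all, 4 genes of this list rose and 2 fell at 200 µM against GD (2 and 6 by median-of-ratios). Among all genes 32% rose and 11.4% fell there (22.7% and 24% by median-of-ratios).

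Of 7 tested genes whose products control the turnover of MCL1, 6 fell and 1 rose in GD against control (5 and 1 by median-of-ratios), where 67.6% and 14% of all genes did. By median-of-ratios 38.7% of all genes fell and 38% rose there. The ubiquitin ligase gene Huwe1 was at 8.95 ± 2.88 TPM in GD and 31.7 ± 0.868 TPM in control (-1.76, SE 0.17, adjusted p = 5.84e-07), and the deubiquitinase gene Usp13 fell by -1.51. Btrc, a ligase subunit gene, fell in GD by -1.08 and was higher at 200 µM (17.7 ± 0.617 TPM) than in GD (12.8 ± 1.93 TPM; 0.44, adjusted p = 0.00492). The gene that rose in GD was Ier3, named after its values were seen, at 263.3 ± 44.0 TPM in GD and 183.9 ± 3.28 TPM in control (0.50, adjusted p = 0.0109, and 0.0626 without replicate 3 of GD).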
